A study of Homo sapiens with 10 samples.

Results

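The genes described here are those whose RNA in MiaPaCa2 cells lay below both controls on every array taken after stellate-cell supernatant had been added. A gene entered when 1 of its probe sets, with a mean of at least 6 (log2 intensity) over the 10 arrays, had its highest of 8 treated values at least 0.15 below the lower of the 2 control values. This margin is called the gap below. The rule was met by 289 of 11243 genes measured (2.57%) and by 331 of 20184 probe sets (1.64%). The genes were thus selected on their treated and control log2 intensities, and differences in that contrast are given as descriptions, without a test. The mirrored rule, with every treated value above both controls by the same margin, was met by 153 genes (1.36%).

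MiaPaCa2 is an established human pancreatic carcinoma line. Treated cells received supernatant of pancreatic stellate cells, the fibroblast-like cells that lay down matrix around such tumours, and these stellate cells had themselves been primed with supernatant pooled from 8 tumour cell lines. Treated cells were harvested 1, 2, 3, 4, 5, 6, 7 and 24 h after the addition, and untreated control cells at 0 and 24 h. Each time has 1 array. No control from 1 to 7 h was analysed here, and whether the controls received fresh medium is not given in the sources used here. Effects of the stellate-cell products and of the addition itself therefore cannot be told apart. Nothing says whether separate cultures were used for the arrays, and the p-values below measure only the spread between these samples. An array value is an average over a culture, in which fewer cells expressing a gene and less RNA per cell cannot be told apart.

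Several of the genes belong to systems that respond to growth factor or BMP signalling. FOXO transcription factors are active when growth factor signalling is low and switch on brakes such as TXNIP, DDIT4 and TSC22D3, while insulin and growth factors keep FOXO out of the nucleus. ID proteins are small partners that block helix-loop-helix transcription factors and are classic targets of BMP signalling. Stellate cells are known as a source of growth factors and matrix proteins for pancreatic carcinoma cells.

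Promoters of 4 of these genes are shown because the genes stand for both systems and include the 3 largest differences. Each runs from 250 bases before to 50 bases after the annotated start in RefSeq (GRCh38.p14). TXNIP lies on the minus strand (chr1:145996530-145996829), DDIT4 on the plus strand (chr10:72273674-72273973), ID1 on the plus strand (chr20:31605039-31605338) and ID3 on the minus strand (chr1:23559452-23559751). Capitals mark matches on either strand to the FOXO motif GTAAACA, the TATA box TATAAA, the CCAAT box, the E-box CACGTG or the AP-1 motif TGANTCA.
TXNIP: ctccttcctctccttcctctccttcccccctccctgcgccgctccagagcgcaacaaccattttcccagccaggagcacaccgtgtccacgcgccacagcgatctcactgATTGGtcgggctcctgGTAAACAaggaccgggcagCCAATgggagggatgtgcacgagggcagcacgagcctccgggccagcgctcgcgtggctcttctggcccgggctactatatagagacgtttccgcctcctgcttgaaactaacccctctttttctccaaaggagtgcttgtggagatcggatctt
DDIT4: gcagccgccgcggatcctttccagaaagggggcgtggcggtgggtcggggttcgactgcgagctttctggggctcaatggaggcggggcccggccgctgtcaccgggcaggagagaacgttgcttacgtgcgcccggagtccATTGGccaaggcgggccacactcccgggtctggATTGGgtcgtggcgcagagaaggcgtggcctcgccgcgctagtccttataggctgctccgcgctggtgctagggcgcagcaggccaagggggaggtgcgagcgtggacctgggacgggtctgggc
ID1: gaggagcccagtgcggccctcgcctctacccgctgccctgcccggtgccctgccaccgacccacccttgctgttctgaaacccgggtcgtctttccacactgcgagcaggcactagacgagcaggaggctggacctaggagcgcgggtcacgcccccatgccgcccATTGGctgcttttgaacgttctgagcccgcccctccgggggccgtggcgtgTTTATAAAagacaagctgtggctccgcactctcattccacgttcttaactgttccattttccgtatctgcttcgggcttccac
ID3: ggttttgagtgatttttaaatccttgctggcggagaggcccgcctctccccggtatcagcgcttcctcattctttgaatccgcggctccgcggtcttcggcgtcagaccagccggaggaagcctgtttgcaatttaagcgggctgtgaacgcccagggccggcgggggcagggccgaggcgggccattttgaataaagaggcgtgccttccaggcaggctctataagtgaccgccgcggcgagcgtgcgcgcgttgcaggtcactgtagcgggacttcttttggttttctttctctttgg
The TXNIP window holds a FOXO motif 124 bases upstream of the start and CCAAT boxes at 105 bases (plus) and 140 bases (minus). DDIT4 holds CCAAT boxes on the minus strand at 108 and 75 bases. In ID1 a TATA box on the plus strand at 31 bases overlaps its minus-strand match at 33 bases, and a CCAAT box lies at 84 bases on the minus strand. The ID3 window holds none of these letters.

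The brakes on growth and nutrient use made up 2 of the 3 largest differences. The groups of genes by role used from here on were formed after the values were seen, so they carry no test. TXNIP, an arrestin-like protein that binds thioredoxin and limits glucose uptake, had treated values with a low of 9.16 at 4 h, a median of 9.64 and a high of 11.21 at 1 h (log2), against 11.38 in the 0 h control and 12.18 in the 24 h control. The treated array at 1 h came close to the 0 h control, and the groups did not overlap. The mean difference was −1.94, or 3.83-fold lower, with a treated mean of 9.84 ± 0.65 (SD, n = 8). Here and below, the SD over treated arrays includes change with time. Its 2 other probe sets also met the rule, with differences of −2.07 and −2.10.

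DDIT4, a stress-induced inhibitor of the mTORC1 growth kinase, lay between 9.99 at 4 h and 11.13 at 1 h in treated cells (median 10.28), against 11.64 and 12.83 in the 0 h and 24 h controls. Its mean difference was −1.80 (3.49-fold lower) and its gap 0.51. TSC22D3, a leucine zipper protein induced by glucocorticoids and by FOXO, ranged from 6.17 to 7.13 in treated cells (median 6.40), with 7.63 and 7.59 in the controls. All 3 genes had their lowest treated value at 4 h and their highest at 1 h. At 24 h TXNIP, DDIT4 and TSC22D3 read 10.09, 10.98 and 6.83 in treated cells. CDKN1C, a cyclin-dependent kinase inhibitor, showed a smaller difference of −0.47 on a probe set whose probes may also match other transcripts. The mean over its probe sets gave a gap of −0.01, so the groups then overlapped.

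**Figure D1:**
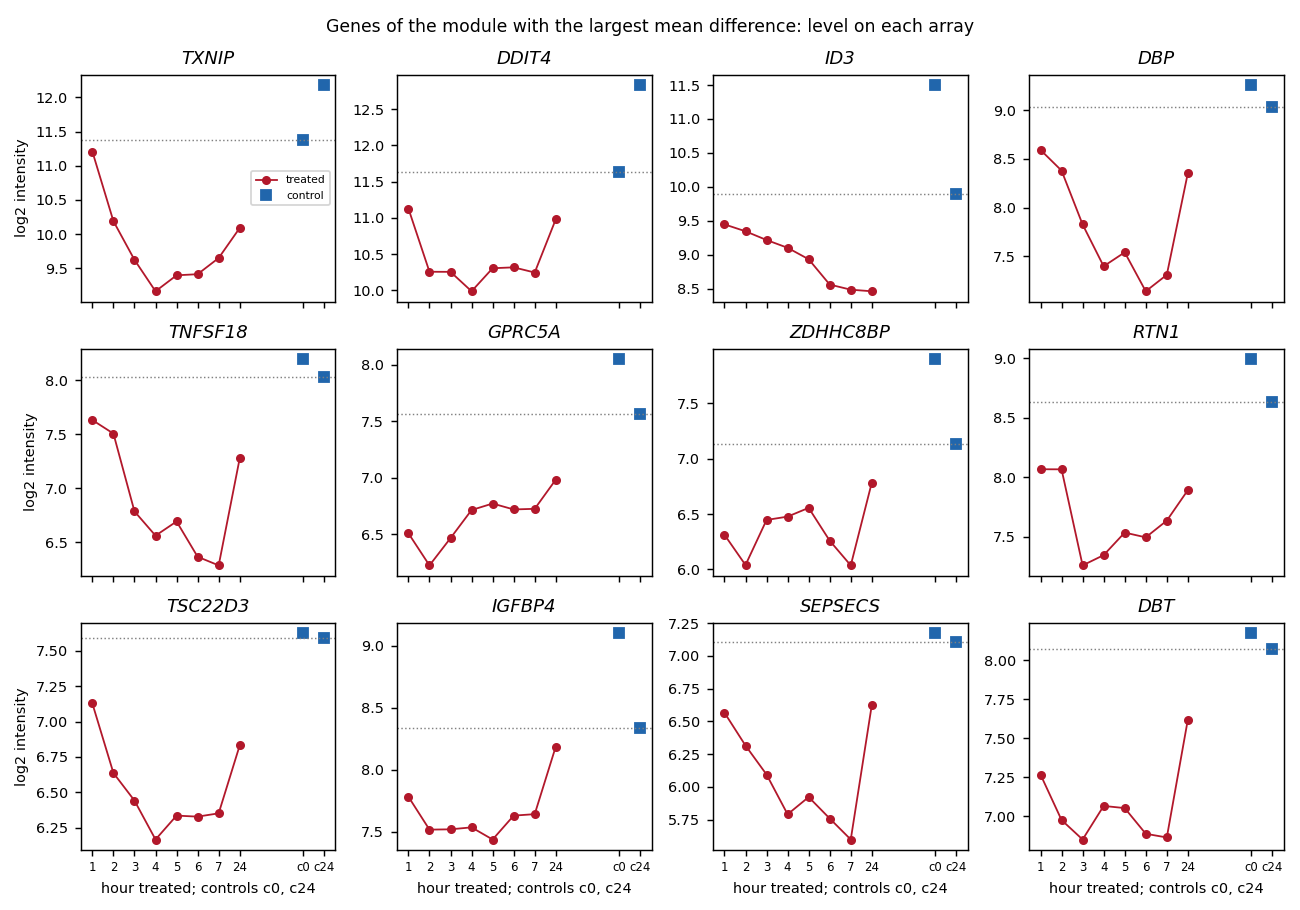
Log2 intensity of the 12 genes with the largest mean difference, on each treated array (red circles, by hour; the axis is not to scale between 7 and 24 h) and each control array (blue squares, c0 and c24 for 0 and 24 h). The dotted line marks the lower control; every red circle lies under it, as the rule requires, and DBP, TNFSF18 and SEPSECS reached their lowest values at 6 or 7 h.

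ID1 and ID3 were both below the controls, and ID3 had 1 of the 3 largest differences. ID3 read 9.45, 9.34, 9.21, 9.10, 8.93, 8.56, 8.48 and 8.46 from 1 to 24 h in treated cells, against 11.50 in the 0 h control and 9.90 in the 24 h control. Every later treated array was lower than the one before it, and the 24 h control itself differed from the 0 h control by −1.60. The mean difference was −1.76, and at 24 h alone treated minus control was −1.44. Over 1 to 7 h ID3 fell by 0.17 ± 0.02 per hour (SE, limma adjusted p = 0.00183), a comparison of treated arrays only. ID1 stayed between 11.22 and 11.70 in treated cells (median 11.48), against 12.31 and 12.02 in the controls, with a slope of 0.00 per hour (limma adjusted p = 0.974). ID2, another family member, is not among the genes because its treated value at 1 h was above the 24 h control, although its mean difference was −1.71.

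A pair of co-receptors of the TGF-beta family was also present. Of 14 measured TGF-beta pathway genes TGFBR3 alone met the rule. That list had a median difference of 0.24, with 4 of 14 below the control mean, and PMEPA1, which TGF-beta induces, was above the controls by 1.62 on average. TGFBR3 (betaglycan) ranged from 8.72 to 9.72 in treated cells (median 8.91), against 9.99 in both controls. It fell by 0.15 ± 0.03 per hour (SE, limma adjusted p = 0.0123) and read 9.32 at 24 h. ENG (endoglin) lay between 7.51 and 8.15 in treated cells, against 8.47 and 8.39 in the controls, a difference of −0.54.

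Clock factors followed. DBP, an output transcription factor of the circadian clock, ranged from 7.14 at 6 h to 8.59 at 1 h in treated cells (median 7.68), against 9.26 and 9.04 in the 0 h and 24 h controls. It fell by 0.24 ± 0.04 per hour (SE, limma adjusted p = 0.00496), the steepest fall among those past the threshold, and stood at 8.36 at 24 h. Its other probe set, with a mean of 5.36 and so under the minimum, showed a difference of 0.14 in the opposite direction. BMAL1, a core clock activator that switches on DBP, was more even, with treated values between 6.79 and 7.24, against 7.67 and 7.76 in the controls.

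Among surface and signalling proteins, 2 ligands of the tumour necrosis factor family, TNFSF18 (the ligand of GITR) and TNFSF4 (the ligand of OX40), were below the controls. TNFSF18 ranged from 6.29 at 7 h to 7.63 at 1 h in treated cells (median 6.74), against 8.19 and 8.03 in the controls, and fell by 0.23 ± 0.03 per hour (SE, limma adjusted p = 0.00432). TNFSF4 ranged from 6.84 to 8.10 (median 7.25), against 8.27 and 8.43, with its lowest value at 3 h. In both genes the 24 h array stood above every array from 3 to 7 h. GPRC5A, an orphan receptor induced by retinoic acid, had the largest gap of all (0.58), with treated values from 6.22 to 6.98 (median 6.72), against 8.05 and 7.57. That value rests on a dim probe set. A pair of brighter probe sets of GPRC5A, with means of 11.8 and 11.9, gave differences of −0.30 and −0.71 and gaps of −0.13 and 0.08. RGS5, a regulator of G protein signalling, met the rule on 3 probe sets, with differences of −0.54, −0.67 and −0.68.

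CD14, the lipopolysaccharide co-receptor of myeloid cells, had treated values with a low of 5.58 at 24 h, a median of 6.75 and a high of 7.29 at 1 h, against 7.72 and 7.63 in the controls. At 24 h it differed from its mean of 4 to 7 h by −1.20 ± 0.22 (SE, limma adjusted p = 0.0219). BST2, an interferon-induced surface protein, differed by −0.58.

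Matrix and secreted proteins formed a group of 12, with differences from −1.07 (IGFBP4) to −0.39 (COL6A1) and a median of −0.53. COL1A2, a chain of type I collagen, ranged from 11.31 at 24 h to 11.94 at 2 h in treated cells (median 11.67), against 12.16 and 12.23 in the controls. It fell by 0.07 ± 0.02 per hour (SE, limma adjusted p = 0.0318), a call lost without the 1, 2, 3, 6 or 7 h array (adjusted p = 0.0511 to 0.103). COL3A1 differed by −0.73, COL18A1 by −0.52, COL26A1 by −0.48 and COL6A1 by −0.39. TIMP2, an inhibitor of matrix metalloproteinases, ranged from 11.74 to 12.08, against 12.52 and 12.35, and fell by 0.06 ± 0.02 per hour (SE, limma adjusted p = 0.0396), a call lost without any 1 of the 7 arrays (adjusted p = 0.0538 to 0.129). The proteases KLK5, KLK8 and CTSC differed by −0.46, −0.47 and −0.80, and the galectin-binding LGALS3BP by −0.56. COL1A2 and COL3A1 are also markers of stellate cells and fibroblasts. The summed level of 10 such markers was 11.74 to 12.31 in treated cells, against 12.44 and 12.52 in the controls (log2), and 5 of the 10 had a mean of 6 or more (COL1A2, COL3A1, COL1A1, ACTA2 and THY1). LUM, POSTN, FAP and PDGFRB stood at 2.77, 3.43, 4.27 and 4.40. Without COL1A2 and COL3A1 the sum over the other 8 was 9.64 to 10.07 in treated cells, against 9.63 and 9.89 in the controls, and 5 of the 8 had a treated mean above the control mean (PDGFRB by 0.27, ACTA2 by 0.24, FAP by 0.09, LUM by 0.06 and THY1 by 0.05). The part of other cells in these values was not tested.

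The insulin-like growth factor binding proteins IGFBP4 and IGFBP6 diverged at 24 h. IGFBP4 had treated values with a low of 7.44 at 5 h, a median of 7.58 and a high of 8.19 at 24 h, against 9.10 and 8.34 in the 0 h and 24 h controls. Its 24 h array was 0.63 ± 0.14 above the mean of 4 to 7 h (SE, limma adjusted p = 0.0413), a call lost without the 2, 4, 5, 6 or 7 h array (adjusted p = 0.0530 to 0.0969). IGFBP6 had a low of 11.30 at 24 h, a median of 12.17 and a high of 12.31 at 1 h, against 12.57 and 12.64 in the controls. At 24 h it differed from its mean of 4 to 7 h by −0.85 ± 0.11 (SE, limma adjusted p = 0.00560). IGF2BP3, an RNA-binding protein of fetal tissue and carcinomas, ranged from 10.78 to 11.50 (median 11.28), against 12.47 and 11.82.

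A chosen group of neuronal and guidance proteins held 5 genes. RTN1, a reticulon of the endoplasmic reticulum, had treated values from 7.26 at 3 h to 8.07 at 1 h (median 7.59), against 9.00 and 8.63 in the controls. Its gap was 0.57, but a brighter probe set of RTN1 differed by −0.79 with a gap of 0.02. STMN3, a stathmin that destabilises microtubules, was lowest at 1 h (6.33) and highest at 5 h (7.38, median 7.01), against 7.95 and 7.93. It thus had its lowest treated value at the hour at which TXNIP, DDIT4 and DBP had their highest. Its brighter probe set gave a difference of −0.43 and a gap of −0.01. The receptor EPHA4 and the Slit-Robo partner SRGAP1 met the rule on 3 probe sets each, with differences from −0.78 to −0.63 and from −0.70 to −0.53. SEMA6B, a transmembrane semaphorin, differed by −0.67.

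The metabolic genes included a subunit and an activator of 1 enzyme of branched-chain amino acid breakdown. DBT, the core subunit of the branched-chain ketoacid dehydrogenase, had treated values from 6.85 at 3 h to 7.62 at 24 h (median 7.01), against 8.17 and 8.07 in the controls. It met the rule on 3 probe sets, with differences of −1.05, −0.79 and −0.70, while another, brighter probe set differed by −0.20 with a gap of −0.18. PPM1K, the phosphatase that activates that enzyme, ranged from 6.22 to 7.04, against 7.32 and 7.22, and fell by 0.13 ± 0.03 per hour (SE, limma adjusted p = 0.0254), a call lost without the 1 or 2 h array (adjusted p = 0.132 and 0.0691). LIAS, which makes the lipoate cofactor, differed by −0.76, GLUD1 by −0.50, ALDH4A1 of proline breakdown by −0.40 and ETHE1 of sulfide oxidation by −0.22. SEPSECS, the enzyme that completes selenocysteine on its transfer RNA, ranged from 5.60 at 7 h to 6.63 at 24 h (median 6.00), against 7.17 and 7.10. It fell by 0.15 ± 0.02 per hour (SE, limma adjusted p = 0.00427). The brightest probe set of SEPSECS showed a difference of 0.07 with a gap of −0.61, while its others differed by −0.90, −0.87 and −0.76.

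A chosen group for mitochondrial gene expression and import held 8 genes. MTRFR, a factor that releases stalled mitochondrial ribosomes, was lowest at 2 h (7.39) and highest at 24 h (8.40, median 8.21) in treated cells, against 8.68 and 8.67 in the controls. GRPEL2, a co-chaperone of mitochondrial protein import, had 5.12 at 2 h and 6.17 at 24 h as its extremes, against 6.46 and 7.27. This GRPEL2 probe set had a treated mean of 5.82 and reached the minimum of 6 through its controls, as did those of 7 other genes among the 289. A brighter GRPEL2 probe set differed by −0.68 with a gap of −0.01, so its groups overlapped. Both were lowest on the 2 h array, which was low over all genes (its median distance from the control mean was −0.11). The pentatricopeptide proteins PTCD2 and PTCD3 differed by −0.59 and −0.54, MTG2 by −0.35, MTERF4 by −0.33, PRORP by −0.31 and the protease CLPP by −0.25. A pair of brighter MTERF4 probe sets pointed the other way, with differences of 0.20 and 0.17.

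Of RNA processing genes, the splicing kinases CLK1, CLK2 and CLK3 were all below the controls, with differences of −0.48, −0.54 and −0.40. CLK1 ranged from 8.13 to 8.86 in treated cells, against 9.01 and 9.02, and fell by 0.12 ± 0.02 per hour (SE, limma adjusted p = 0.0133), a call lost without the 6 or 7 h array (adjusted p = 0.0539 and 0.0536). The slopes of CLK2 and CLK3 were 0.04 and 0.02 per hour (limma adjusted p = 0.307 and 0.622). CLASRP, a splicing regulator that binds CLK proteins, differed by −0.43, the splicing factor RBM39 by −0.49, and the nonsense-mediated decay factors SMG5 and SMG9 by −0.37 and −0.66. CIRBP, a cold-inducible RNA-binding protein, differed by −0.73 on the probe set that met the rule, but a pair of brighter CIRBP probe sets differed by 0.27 and 0.33.

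The ubiquitin system held 8 of the genes. SPOP, a substrate adaptor of cullin ligases that is mutated in some carcinomas, ranged from 8.00 to 8.49 (median 8.17), against 8.85 and 9.34 in the controls. USP20 was among the most even, with treated values between 6.99 and 7.20, against 7.63 and 7.66, and USP21 met the rule on 3 probe sets with differences of −0.43, −0.42 and −0.32. CUL4B fell by 0.10 ± 0.02 per hour (SE, limma adjusted p = 0.00687) and the conjugating enzyme UBE2H likewise by 0.10 ± 0.02 (SE, limma adjusted p = 0.0215). The UBE2H call was lost without the 1, 6 or 7 h array (adjusted p = 0.0802, 0.0714 and 0.0520). The ligases MARCHF6 and WSB1 differed by −0.57 and −0.73, and UBE2V2 by −0.24. A pair of other WSB1 probe sets overlapped the controls, with differences of −0.14 and −0.37 and gaps of −0.22 and −0.37. Dimmer WSB1 probe sets differed by −0.98 and 0.08, with gaps of 0.26 and −0.76. A brighter probe set of UBE2V2 differed by 0.11.

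In DNA repair and cell death, BAX, a mediator of mitochondrial apoptosis, ranged from 8.51 at 2 h to 9.27 at 4 h (median 8.99), against 9.46 and 9.55, and met the rule on 2 probe sets. ERCC6 of transcription-coupled repair differed by −0.95, the helicase RECQL5 by −0.66, the checkpoint clamp loader RAD17 by −0.57, the polymerase POLK by −0.51, and the checkpoint kinase CHEK1 and the phosphatase PPM1D each by −0.46. CHEK1 has 3 brighter probe sets, whose gaps of −0.90 to −0.72 show overlapping groups. A chosen group of 11 chromatin genes had differences from −0.83 (PHF21A) to −0.28 (CARM1). PHF21A is a reader of unmethylated histone H3 in the LSD1 corepressor complex, and CARM1 is an arginine methyltransferase. PHF21A fell by 0.17 ± 0.03 per hour (SE, limma adjusted p = 0.00541). The remodelling subunits SMARCC2 and SMARCD3 differed by −0.43 and −0.33, the helicases CHD2 and CHD9 by −0.55 and −0.47, the methyltransferase SETDB1 by −0.41 and the demethylase KDM4B by −0.51.

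Over all 289 genes the mean difference had a median of −0.51 and ran from −1.94 to −0.22, beside a median of −0.02 over all genes measured. It was −0.5 or lower in 149 genes and −1 or lower in 16. The gap had a median of 0.21, and 46 genes had a gap of 0.3 or more. Members just inside the margin were IGFBP4, MR1 and ZSCAN18, all with a gap of 0.15, and the nearest outside were probe sets of HCG11, NMT2 and PPP1R3B, also 0.15 after rounding; NMT2 is a member through another probe set. The 0 h control was the higher of the pair in 153 genes and the 24 h control in 136. Controls lay within 0.1 of each other in 155 genes (53.6%, beside 29.1% of all genes measured), a share that the rule favours because it reads the lower control. They were 0.5 or more apart in 14 genes, TXNIP, DDIT4, ID3, IGFBP4 and CAVIN2 among them. CAVIN2, a caveolar coat protein, ranged from 7.59 to 8.04 in treated cells (median 7.91), against 9.38 and 8.36.

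The median distance from the control mean over the 289 genes was −0.37 at 1 h, −0.60 at 2 h, −0.53 at 3 h, −0.50 at 4 h, −0.44 at 5 h, −0.55 at 6 h, −0.60 at 7 h and −0.38 at 24 h. The 1 h and 24 h arrays were thus the nearest to the controls. They held the highest treated value in 96 and 90 genes, together 64.4%, beside 38.5% of all genes measured. The lowest treated value fell at 2 h in 86 genes (29.8%, beside 32.5% of all genes) and at 7 h in 67 (23.2%, beside 10.5%). The 2 h array was low as a whole: its median distance over all genes was −0.11, beside −0.02 to 0.01 on the other treated arrays, and its upper quartile was 7.50, beside 7.63 to 7.76 elsewhere. After cyclic loess scaling 41 genes were lowest at 2 h and 79 at 7 h.

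**Figure D2:**
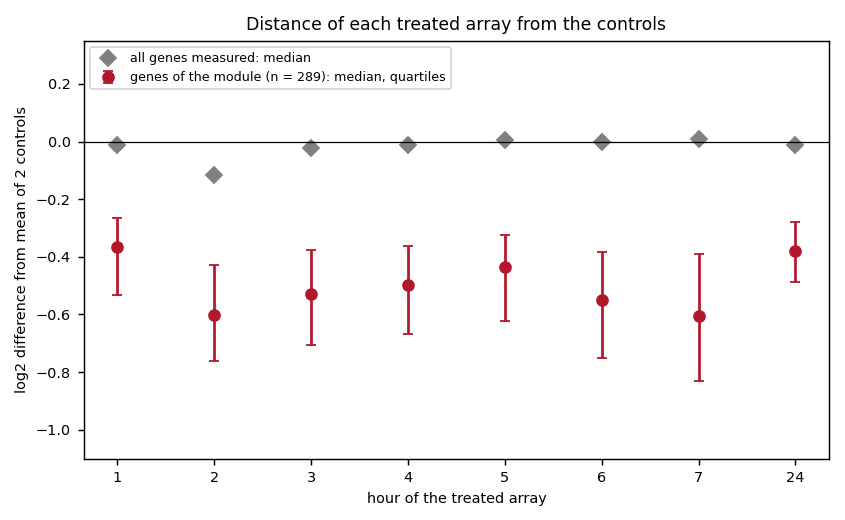
Log2 distance of each treated array from the mean of the 2 controls, by hour on an axis not to scale between 7 and 24 h: red circles and bars give the median and quartiles over the 289 genes, grey diamonds the median over all 11243 genes. The red medians run between −0.60 and −0.37, nearest to 0 at 1 and 24 h, and the grey one dips to −0.11 at 2 h.

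At 24 h, 221 of the 289 genes (76.5%, beside 47.4% of all genes) were above their own mean of 4 to 7 h, with a median difference of 0.12, beside −0.01 over all genes. In the chosen groups, all 7 DNA damage and cell death genes, all 6 metabolic genes and 10 of 11 chromatin genes were above it. With 76.5% of the 289 above, these small groups are given as a description only. The matrix group was split, with 5 of 12 above. IGFBP6, CD14 and COL1A2 had their lowest treated value at 24 h.

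Time courses within the treated arrays were tested with limma, which leaves the controls out. The rule bounds the highest treated value and so narrows the treated range (median 0.47, beside 0.52 over all genes), and these tests are not wholly free of it. In the slope over 1 to 7 h (7 arrays, 5 residual degrees of freedom), 41 of 289 genes passed a Benjamini-Hochberg adjusted p of 0.05 over 20184 probe sets (14.2%, against a background of 23.1% called). Of these 35 fell (12.1%, background 8.56%) and 6 rose (2.08%, background 14.6%). The background here and below is over probe sets, several for some genes. With 1 probe set a gene, 9.34% of all genes measured fell and 15.7% rose. At an unadjusted p under 0.05 there were 75 of the 289 genes, a count given without a background. The count depends on single arrays. With the 6 h array left out it was 18 (6.23%, background 9.43%), with 17 falling and 1 rising. With the 1 h array left out 18 fell and 10 rose (9.69% called, background 17.8%). The number rising was 2, 3 and 3 when the 2, 3 and 5 h arrays were left out, beside 1838, 2178 and 2050 of 20184 probe sets. After cyclic loess scaling 55 fell and 5 rose (20.8% called, background 27.2%).

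Of the 41, 14 passed with each of the 7 arrays left out in turn: ADCY7, BMERB1, CCDC71L, CUL4B, DBP, ID3, KLHDC8B, LINC02683, NBR1, PHF21A, SEPSECS, TFAP2A, TGFBR3 and TNFSF18. Over 3 to 7 h alone, a window chosen after seeing the data, DBP, KLHDC8B, TNFSF18, SEPSECS and TGFBR3 missed the threshold (limma adjusted p = 0.117, 0.109, 0.0640, 0.0880 and 0.166). With the brightest probe set of each gene SEPSECS and CCDC71L missed it (limma adjusted p = 0.210 and 0.250). KLHDC8B, a kelch repeat protein, fell by 0.20 ± 0.03 per hour (SE, limma adjusted p = 0.00473), with 8.63 at 1 h and 7.48 at 7 h as treated values, against 8.89 and 8.92 in the controls. CCDC71L fell by 0.18 ± 0.02 per hour (SE, limma adjusted p = 0.00164), but its brightest probe set differed from the controls by −0.01 with a gap of −0.69, and the mean over its probe sets gave a gap of −0.21. WSB1 fell by 0.18 ± 0.05 per hour (SE, limma adjusted p = 0.0352), a call lost without the 1, 3, 6 or 7 h array (adjusted p = 0.0533, 0.0579, 0.111 and 0.154). TXNIP and TSC22D3 had slopes of −0.23 and −0.11 per hour that missed the threshold (limma adjusted p = 0.0664 and 0.0647).

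The genes that rose on the probe set under both controls were TFAP2A, MTRFR, PTMS, UNC119B, YWHAE and PDRG1. TFAP2A, a transcription factor of epithelial and neural crest development, read 8.17, 8.24, 8.27, 8.71, 8.86, 8.96 and 8.97 from 1 to 7 h and 8.78 at 24 h, against 9.55 and 9.35 in the controls. It was farthest from the controls on the first arrays and rose by 0.16 ± 0.02 per hour (SE, limma adjusted p = 0.00343). A far brighter probe set of TFAP2A did not stay under both controls, with 11.50, 11.51, 11.53 and 11.64 at 5, 6, 7 and 24 h, against 11.96 and 11.45 in the 0 h and 24 h controls (gap −0.19). MTRFR rose by 0.15 ± 0.04 per hour (SE, limma adjusted p = 0.0209), a call lost without the 6 h array (adjusted p = 0.0634) and over 3 to 7 h alone (adjusted p = 0.0843). The other 4 each lost the call without at least 3 of the 7 arrays.

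Between the windows 4 to 7 h and 1 to 3 h, 28 genes passed (9.69%, background 23.3%), 18 lower (6.23%, background 6%) and 10 higher (3.46%, background 17.3%) in the later window. The largest were DBP (−0.92, limma adjusted p = 0.0116), TNFSF18 (−0.83, 0.0206) and KLHDC8B (−0.80, 0.0103) among the lower ones. Among the higher ones they were MTRFR (0.70, limma adjusted p = 0.00813) and TFAP2A (0.65, 0.00813), and GRPEL2 (0.64, 0.0148), which was in the fit only through its controls. This count rests on the 2 h array: without it 2 genes passed (0.692%, background 2.38%), MTRFR and TFAP2A. DBP, KLHDC8B, GRPEL2 and TNFSF18 then did not (limma adjusted p = 0.0620, 0.0543, 0.0594 and 0.0945). TNFSF18 also lost the call without the 1 or 6 h array (adjusted p = 0.0666 and 0.0574). Without the 1, 5, 6 and 7 h arrays the count of genes was 13, 10, 8 and 15. These are 4.50%, 3.46%, 2.77% and 5.19%, beside backgrounds of 10.7%, 8.64%, 8.24% and 16.3%. Without the 3 h array it was 54 (18.7%, background 29.2%). The calls over all probe sets thus changed along with those of the 289 genes.

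At 24 h against 4 to 7 h, 4 genes passed (1.38%, background 4.32%), in a fit where the lone 24 h array is assumed to vary like the others. IGFBP6 and CD14 were lower (0.692%, background 2.17%) and SEPSECS and IGFBP4 higher (0.692%, background 2.16%). SEPSECS was 0.86 above its mean of 4 to 7 h (limma adjusted p = 0.0332). The 24 h array, on which all 4 calls rest, cannot be left out. IGFBP6 and CD14 kept the call with each of the 7 other arrays left out, though CD14 lost it when 5 to 7 h served as the earlier window. SEPSECS lost it without the 2, 4, 5 or 6 h array (adjusted p up to 0.0761) and IGFBP4 without the 2, 4, 5, 6 or 7 h array (up to 0.0969). Leaving out the 1 h and 3 h arrays gave counts of 10 and 12, and leaving out the 2, 5 or 6 h array gave 2. At an unadjusted p under 0.05 there were 48.

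**Figure D3:**
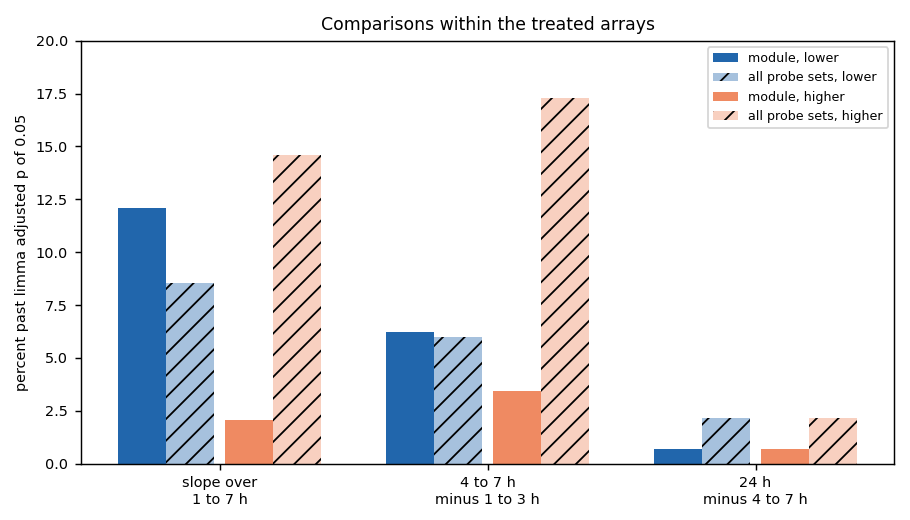
Percent of the 289 genes (plain bars) and of all 20184 probe sets (hatched bars) past a limma adjusted p of 0.05 in each comparison among treated arrays, split into lower (blue) and higher (orange). In the slope the 289 genes hold 12.1% lower and 2.08% higher calls, beside 8.56% and 14.6% of all probe sets.

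Other probe sets of the same genes give a further reading from the same arrays. They are those left once the probe sets that met the rule were taken out, so the rule shaped them too, and they are set beside the 19853 probe sets in the fit that did not meet it. Of 308 with a mean of 6 or more, in 183 genes, 275 had a treated mean below the control mean (89.3%, beside 55.1% of the 19853). In 103 (33.4%, beside 5.55% of the 19853 and a background of 7.1% over all probe sets, those that met the rule included) all 8 treated values lay below both controls, and in 0 did all 8 lie above both. Their median difference was −0.30. In 26 genes at least 1 such probe set had a treated mean above the control mean. For CIRBP, MTERF4, UBE2V2 and SEPSECS the opposing probe sets were brighter than the one described. Of 180 with a mean under 6, 124 were below (68.9%) with a median of −0.08. The rule was met by 2 or more probe sets in 32 genes (11.1%). For 27 genes (9.34%, beside 9.56% of all probe sets in the rule) the probe set described is of a kind whose probes may also match other transcripts, and their values are uncertain in that respect.

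**Figure D4:**
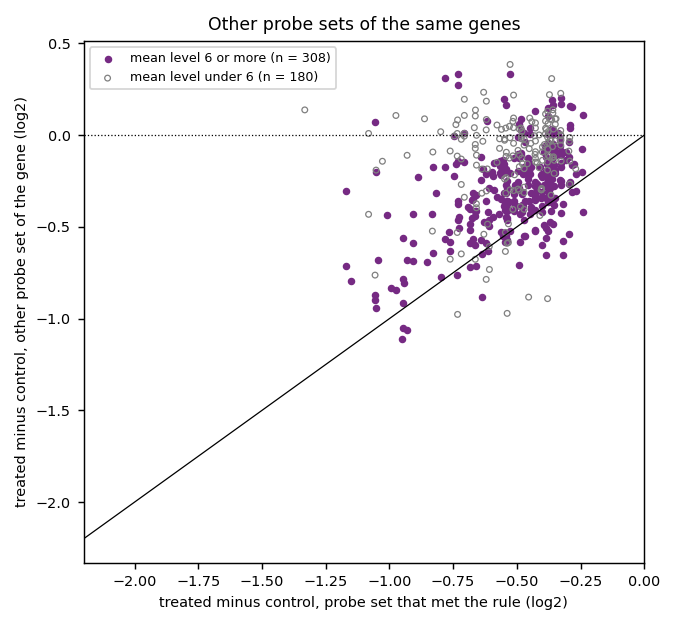
Mean treated minus control (log2) of the probe set that met the rule (horizontal) and of another probe set of the same gene (vertical), filled for a mean level of 6 or more (n = 308) and open for less (n = 180). Most filled points lie below the dotted line at 0 and above the solid line of equal difference, with 33 filled points above 0.

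Gene lists place the genes among their relatives, with 1 probe set a gene. Of 27 measured FOXO and growth factor withdrawal genes 3 met the rule (TXNIP, DDIT4 and TSC22D3), 21 were below the control mean and the list median was −0.17, beside 5989 of 11243 and −0.02 over all genes. In the slope over 1 to 7 h, 13 of the 27 fell and 0 rose past a limma adjusted p of 0.05, beside 9.34% and 15.7% of all genes measured. Most of the 13 were above both controls at 1 h: ARRDC2, ARRDC3, IRS2, FOXO3, KLHL24, HBP1, MXI1, RBL2, YPEL5 and KLF6. ARRDC3 read 9.94 at 1 h, against 8.44 and 8.43 in the 0 h and 24 h controls. KLF6 read 11.59, against 10.82 and 11.01. YPEL3 lay between the controls at 1 h, and CCNG2 and ERBB3 below both. Most of these falls thus started above the controls, unlike the genes that met the rule. TXNIP, DDIT4 and TSC22D3 were not among the 13 (limma adjusted p = 0.0664, 0.233 and 0.0647). CDKN1B and PIK3IP1 stood just outside the margin, each with a gap of 0.15 after rounding. BCL6 and ARRDC3, also on this list, were above the controls on average (0.51 and 0.43). Of 12 measured ID and BMP response genes 2 met the rule, with a list median of −0.16. Of 11 genes on the IGF receptor, IRS and IGFBP list 3 did (IGFBP4, IGFBP6 and IGF2BP3), with a list median of −0.14. That list also holds IGF2BP2 and IGF2BP3, which are RNA-binding proteins and not of the families it is named for. In the slope 3 of the ID and BMP genes fell and 0 rose, and 5 of the IGF list fell and 1 rose, beside the same shares of all genes. Of those that fell, BMP4, IRS2, IGF1R, IGF2R and GRB10 were also above both controls at 1 h. ID2 lay between the controls at 1 h, and ID3 and IGF2BP3 below both. IGF2BP3 was among the 5 (limma adjusted p = 0.0316), a call lost without the 2, 3, 6 or 7 h array (adjusted p up to 0.143).

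Other lists held few of the genes, beside 2.57% of all genes measured, and with so few members their counts are given as a description only. The rule was met by 1 of 16 mTORC1 negative regulators (DDIT4), 1 of 8 cyclin-dependent kinase inhibitors and pocket proteins (CDKN1C), 1 of 32 lysine methyltransferases and demethylases (KDM4B) and 1 of 83 mitochondrial ribosome and translation genes (MTRFR). It was met by 2 of 40 USP deubiquitinases, 3 of 77 cullin adaptors, 5 of 192 solute carriers (2.60%), 2 of 141 TMEM genes and 4 of 317 ZNF genes (1.26%). No gene met it among 18 Wnt and Notch genes, 17 histone deacetylases and sirtuins or 31 lysosome and vacuolar ATPase genes.

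Markers were read as a check on the cells. KRT8, KRT18 and KRT19, keratins of simple epithelium, and VIM, the intermediate filament of mesenchymal cells, had means of 11.9, 14.1, 11.6 and 14.5. EPCAM and CDH1, adhesion proteins that define epithelium, stood at 3.04 and 3.58, near the bottom of the scale. Of the 2 leukocyte markers none had a mean of 6 or more, and of the 2 endothelial ones PECAM1 did (6.30, with treated values from 6.02 to 6.61, against 6.06 and 6.34 in the controls), while VWF stood at 4.52. The part of other cells in the values of ENG and CD14 was not tested.

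The share of genes that met the rule is given by chromosome as a description, without a test. Chromosome 19 held 44 of its 830 measured genes (5.30%), chromosome 1 held 42 of 1144 (3.67%) and chromosome 17 held 24 of 707 (3.39%), beside 2.57% of all genes. The X chromosome held 3 of 331 (0.906%). On chromosome 19, 11 of 104 measured genes between 45 and 50 Mb were members (10.6%), BAX, DBP, CLASRP and CARD8 among them. Protein-coding genes made up 97.2% of the members, beside 94.4% of all genes measured, and 7 members were long non-coding RNAs.

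**Figure D5:**
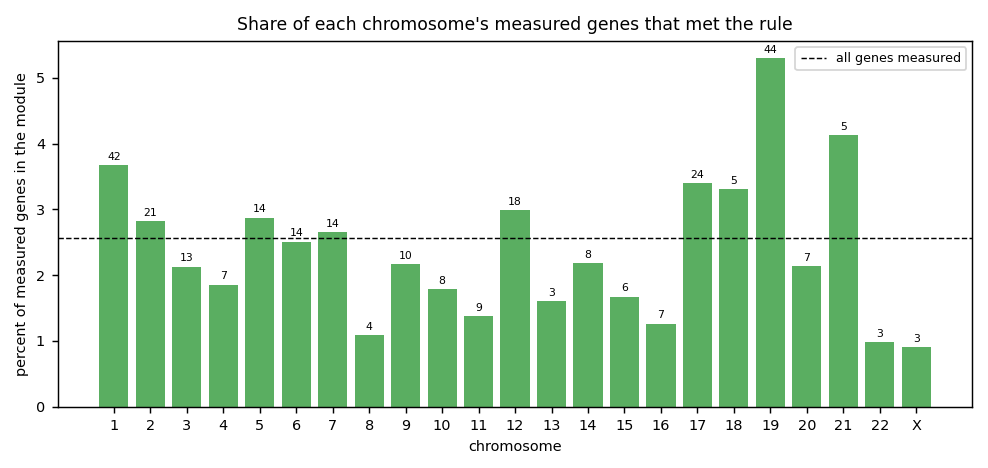
Percent of each chromosome's measured genes that met the rule, with the number of such genes above each bar and the percent over all genes as a dashed line. Chromosome 19 stands highest at 5.30% and X lowest at 0.906%.

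Promoters of 247 members and of 9217 measured genes were in the RefSeq table. The median GC content was 65.0% in members, beside 65.7% in all. The FOXO motif GTAAACA, on either strand, was in 11 member promoters (4.45%), beside 2.25% of all; these included TXNIP, IGFBP6 and MTRFR, and not DDIT4. TATAAA was in 4.45% beside 5.19%, CCAAT in 30.8% beside 36.6%, CACGTG in 12.6% beside 10.5%, TGANTCA in 4.45% beside 4.33%, the GC box GGGCGG in 66.8% beside 71.0% and the SMAD motif CAGAC in 41.7% beside 42.2%. A match describes letters only, and its absence says nothing of the factor.

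Scaling changed the balance of the 2 rules. With the deposited values 289 genes lay below both controls and 153 above, whereas after cyclic loess scaling 215 lay below and 207 above. Of the 215, 211 were among the 289. The same scaling moved the median treated-minus-control difference of all probe sets to −0.01, beside −0.03 as deposited. The count also depended on the arrays used. Leaving an array out removes a condition of the rule, so a higher count follows almost by construction. The count was 450 without the treated 1 h array and 537 without the treated 24 h array. It was 938 without the 0 h control and 1341 without the 24 h control. Without both 24 h arrays it was 2123. With each time set against its nearest control (1 to 7 h against 0 h and 24 h against 24 h) 479 genes met the margin. The 289 are among them by construction, because the rule already sets every treated value below both controls.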

How the data were processed

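RNA of MiaPaCa2 cells was measured on 10 Affymetrix arrays, 8 treated and 2 control, grouped by the labels. The authors made the deposited log2 intensities with RMA (version not stated), per the submitters' processing notes. The table has 54675 probe sets. The platform annotation pairs 41097 with a single symbol, 1801 with more and 11777 with none. Single-symbol probe sets were used, and 20184 had a mean of at least 6. All 289 members' Entrez identifiers were found in RefSeq.

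Members were found by the rule stated at the start. For a gene with several probe sets in the rule, that with the highest mean was described. Members and lists were chosen with earlier results of these data known. Genes named by rule were the 12 with the largest gap, the 12 with the largest difference, the 6 largest falls and rises past the threshold in the slope and 4 in the other comparisons, list members, and 3 on each side of the margin. Genes named by role were chosen after their values were seen.

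Two-sided tests were run with lmFit and eBayes of limma 3.58.1 (R 4.3.3): the slope over 1 to 7 h, 4 to 7 h against 1 to 3 h (both 7 arrays) and 24 h against 4 to 7 h (8 arrays), each with 5 residual degrees of freedom and Benjamini-Hochberg adjustment over 20184 probe sets. Tested on simulated data with 200 changed among 20184 probe sets, they recovered 65%, 91% and 67% of the smaller changes and 97%, 97% and 95% of the larger, with 8, 7 and 6 false calls; the simulated noise was independent between probe sets, unlike that of these arrays. The number of arrays limits the precision. Alternatives were other margins, minimum means, scalings, probe-set rules, windows and left-out arrays, and a deposited filtered table of 7622 probe sets whose values equalled the full table's within 5e-09. Tables were read with pandas 2.3.3 and numpy 2.4.6 and figures drawn with matplotlib 3.10.9, in Python 3.11.15.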

Additional observations from a re-analysis of the deposited data

Results flagged for a closer look

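Among the 53 genes named by rule, 5 had a treated array standing apart from the other 7, and among all 289 genes 17 did. Chance flags about 1 in 20 groups of samples. The gap of the isolated array to the next, as a fraction of the range over 8 treated arrays, was 0.789 for IGFBP6, lowest at 24 h. It was 0.596 for CD14 and 0.573 for SLC25A20, a mitochondrial carnitine carrier, both lowest at 24 h. IGFBP4 was highest at 24 h with 0.54. KDM4B was lowest at 2 h with 0.644, on the array whose overall level was low. Each rests on 1 array, and its cause was not tested.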

How the results depend on the processing

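The number of genes meeting the rule was 1145 with no margin, 54 with a margin of 0.3, 145 with all probe sets of a gene averaged (131 shared with the 289), 157 with the brightest probe set of each gene and 89 in the filtered table. Leaving out 1 array, which removes a condition of the rule, gave 297 to 1341. Without both 24 h arrays it was 2123 and with 1 to 7 h against the 0 h control and 24 h against the 24 h control 479, both chosen after seeing the data. Minimum means of 5 and 7 gave 340 and 215. The slope called 66 genes with the brightest probe set (22.8%, beside 28.3% of all genes measured) and 24 with no minimum mean. The latter is 8.30%, close to its background of 8.51%. Over hours 3 to 7 only, chosen after seeing the data, the slope called 21 (7.27%, background 10.3%). With 1 array left out it called 18 to 40 (6.23% to 13.8%, background 9.43% to 22.2%). The windows differed in 45 genes after cyclic loess scaling (15.6%, background 23.6%). They differed in 46 with the brightest probe set (15.9%, beside 25.8% of all genes measured) and in 17 with no minimum mean (5.88%, background 9.28%). With 1 array left out they differed in 2 to 54 genes (0.692% to 18.7%, background 2.38% to 29.2%). The comparison of 24 h with 4 to 7 h called 8 with the brightest probe set, 1 against 5 to 7 h and 2 to 12 with 1 array left out. Signs turned for GPRC5A between windows with its brightest probe set (−0.31, limma adjusted p = 0.137) and for the gaps of CCDC71L (−0.21), CDKN1C (−0.0074), SLC4A7 (−0.0056) and UNC119B (−0.011) with the mean of probe sets; the cause was not tested. No paired analysis was possible because the treated arrays are single times and share no replicate with the controls. Values have no counts behind them; 1 array at each time and 2 controls limit what these data can show.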

Other observations

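Probe sets without a single gene symbol were looked at apart. Of 3132 with a mean of 6 or more, 36 met the rule (1.15%) and 29 the mirrored one, beside 1.64% of those with 1 symbol. They are not named here. Transcription factors of body patterning were among the 289 genes without a list of their own: HOXB9 had treated values from 7.91 at 7 h to 8.62 at 3 h, against 8.87 and 9.30 in the 0 h and 24 h controls, and HOXB5 from 5.84 to 6.23, against 6.83 and 6.48. MYL9, a myosin light chain of contractile cells, differed by −0.64 with a gap of 0.44, and CCDC106 by −0.64 with a gap of 0.47. PSG9, a pregnancy-specific glycoprotein, differed by −1.03.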
